A study of Mus musculus with 19 samples.

Results

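The 9 lipid-associated macrophage genes Gpnmb, Trem2, Tyrobp, Spp1, Lgals3, Apoe, Cd36, Fabp5 and Cd9 were examined in bulk RNA-seq of mouse dorsal root ganglia, which house the cell bodies of the sensory neurons that serve the limbs and trunk. They were taken by gene name from a table of 36682 genes, in which all 9 were found, and all 9 passed the filter on low counts that left 22778 genes for testing. Lipid-associated macrophages are macrophages that take up and store lipid, described in obese fat, in atherosclerotic plaque and in injured nervous tissue. Their program is centred on TREM2, a surface receptor for lipids and lipoproteins, which signals through the adaptor TYROBP. The other genes serve lipid carriage (Apoe), fatty acid uptake and binding (Cd36, Fabp5), lysosome and membrane functions (Gpnmb, Cd9) and secreted signals (Spp1, Lgals3). Several of them are known outside macrophages as well, Apoe in glia among others, and pooled tissue does not assign a count to a cell type.

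All 19 libraries came from male mice homozygous for the MaFIA (macrophage Fas-induced apoptosis) transgene. It is driven by the promoter of Csf1r, which is active in macrophages and monocytes but not in them alone, and the dimerizer AP20187 triggers the death of cells that carry the protein. The mice had osteoarthritis of the knee from surgical destabilization of the medial meniscus (DMM), or were naive and age-matched; their age was not given. Each received AP20187 or vehicle intraperitoneally, daily for 5 days, which in the DMM mice was 8 weeks after surgery. The groups were DMM with AP20187 (n = 5, libraries 58 to 62), DMM with vehicle (n = 5, libraries 32, 33, 34, 63 and 64), naive with AP20187 (n = 4, libraries 1, 3, 4 and 5) and naive with vehicle (n = 5, libraries 1 to 5). Every group carried the transgene, and the design had no mice without it and no sham surgery. Ganglia L3 to L5 of the operated side were pooled. The labels do not state that each library is a separate mouse, so p-values measure the spread between libraries.

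For 7 of the 9 genes a promoter window was found in RefSeq (build GRCm38.p6, 250 bases before to 50 after the transcript start); Tyrobp and Fabp5 had no entry. The windows of 3 genes that stood apart between AP20187 and vehicle in naive mice are shown, 5′ to 3′ on the gene's strand. Capitals mark a match to one of 4 motifs searched on both strands: TGACTCA (AP-1), GAGGAA (the core read by PU.1, the myeloid lineage factor), and CACGTG and CATGTG (E-boxes read by the MiT/TFE factors of lysosome genes). They are Gpnmb at chr6:49036268-49036567, Trem2 at chr17:48346151-48346450 and Lgals3 at chr14:47373610-47373909, all on the plus strand.
Gpnmb: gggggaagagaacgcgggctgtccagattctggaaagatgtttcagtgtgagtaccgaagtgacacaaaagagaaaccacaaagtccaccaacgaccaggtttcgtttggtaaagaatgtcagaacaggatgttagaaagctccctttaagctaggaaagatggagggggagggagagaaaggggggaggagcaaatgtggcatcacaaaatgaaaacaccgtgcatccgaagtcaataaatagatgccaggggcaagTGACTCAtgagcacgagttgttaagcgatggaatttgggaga
Trem2: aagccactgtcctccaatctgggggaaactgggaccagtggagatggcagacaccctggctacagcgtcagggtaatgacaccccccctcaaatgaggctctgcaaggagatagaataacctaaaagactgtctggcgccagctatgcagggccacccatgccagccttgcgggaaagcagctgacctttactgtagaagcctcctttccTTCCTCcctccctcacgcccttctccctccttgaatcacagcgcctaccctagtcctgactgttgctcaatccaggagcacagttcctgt
Lgals3: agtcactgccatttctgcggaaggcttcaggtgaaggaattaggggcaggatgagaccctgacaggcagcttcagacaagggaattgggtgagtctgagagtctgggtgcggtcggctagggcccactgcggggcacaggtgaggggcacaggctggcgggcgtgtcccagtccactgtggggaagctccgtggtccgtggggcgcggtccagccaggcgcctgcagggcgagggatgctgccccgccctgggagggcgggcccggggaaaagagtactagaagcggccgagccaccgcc
The Gpnmb window held TGACTCA 9 bases after the start, and 5.19% of 32544 mouse promoter windows held that motif. The Trem2 window held TTCCTC, the reverse complement of GAGGAA, 40 bases before the start, a motif present in 28.1% of windows. In the Lgals3 window none of these letters was found. CACGTG was in 7.17% and CATGTG in 14.2% of all windows, and neither was in these 3. Such matches describe letters only.

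On GRCm39, the build named in the submitters' processing notes, the table placed Gpnmb (ENSMUSG00000029816) at chr6:49013480-49047863 (+) and Trem2 (ENSMUSG00000023992) at chr17:48653429-48661175 (+). Tyrobp (ENSMUSG00000030579) was at chr7:30113185-30117010 (+), Spp1 (ENSMUSG00000029304) at chr5:104582984-104588916 (+) and Lgals3 (ENSMUSG00000050335) at chr14:47605208-47623617 (+). Apoe (ENSMUSG00000002985) was at chr7:19430034-19433113 (-), Cd36 (ENSMUSG00000002944) at chr5:17986688-18093745 (-), Fabp5 (ENSMUSG00000027533) at chr3:10077608-10081667 (+) and Cd9 (ENSMUSG00000030342) at chr6:125437229-125471754 (-). Spp1 overlaps Gm42793 on its own strand, which had at most 47 counts in a library. Cd9 overlaps Gm26728 and Gm28809 on the other strand, with at most 193 and 88 counts; the strand setting of the counting was not given.

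Libraries held 60984830 to 74691396 counts. Markers of other cells differed between libraries. The summed level of 10 genes of neutrophils and their precursors in CPM (counts scaled to library size, after TMM normalization) was 14930 to 25460 for DMM mice given AP20187 and 359 to 7182 for those given vehicle. It was 6895 to 24390 for naive mice given AP20187 and 753 to 2055 for those given vehicle. The sum of 6 skeletal muscle genes was 1584 to 2407 CPM in the naive AP20187 group, against 13.3 to 441 in its vehicle group, 17.2 to 132.5 in the DMM AP20187 group and 15.9 to 1865 in the DMM vehicle group, where library 32 was the highest. The sum of 12 general macrophage genes was 271 to 1081 CPM in the DMM AP20187 group, 193 to 674 in the DMM vehicle group, 503 to 847 in the naive AP20187 group and 109 to 538 in the naive vehicle group. Of the 12, 4 were called higher with AP20187 in naive mice (Aif1, C1qb, Cd68 and Fcgr1) and 1 in DMM (Mrc1), and none lower; over all genes 8.61% and 11.3% were called higher, so the count in DMM is near the share of all genes. Csf1r, whose promoter drives the transgene, was 69.4 ± 12.9 CPM (SD, n = 4) in naive with AP20187 and 50.9 ± 29.4 (n = 5) with vehicle, and in DMM 69.1 ± 35.9 and 70.0 ± 48.3 (n = 5 each). Adgre1 was 41.6 ± 9.13 and 17.8 ± 14.8 CPM in naive mice, and 44.6 ± 28.1 and 24.4 ± 14.1 in DMM, neither past the test. Cd68 rose in naive mice by 1.98 on the log2 scale (adjusted p 0.0139) and Fcgr1 by 2.00 (adjusted p 0.0334). Without 1 library, the Cd68 call ended for naive AP20187 3 alone, and the calls of Fcgr1, C1qb and Aif1 were kept in 3, 3 and 2 of 9 fits and that of Mrc1 in 6 of 10.

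Per gene length, the 9 genes spanned a wide range in naive mice with vehicle. On the authors' FPKM scale, which divides fragments by gene length and sequencing depth, Apoe was highest at 832 ± 286 (SD, n = 5), followed by Cd9 at 332 ± 80.1 and Spp1 at 93.1 ± 31.6. Fabp5 at 21.5 ± 6.68 and Tyrobp at 21.3 ± 10.7 did not differ beyond their spread, and Lgals3 followed at 13.3 ± 5.57. Cd36 was 4.82 ± 3.00, Gpnmb 1.26 ± 0.288 and Trem2 0.566 ± 0.326 FPKM. In naive mice with AP20187 (n = 4) the order was Apoe 889 ± 94.7, Cd9 187 ± 17.1, Spp1 118 ± 17.3, Tyrobp 81.8 ± 36.8, Lgals3 45.5 ± 14.2, Fabp5 17.8 ± 2.74, Gpnmb 10.9 ± 1.21, Cd36 7.02 ± 0.867 and Trem2 1.58 ± 0.396. Tyrobp and Lgals3 thus stood above Fabp5, and Gpnmb above Cd36, where the order with vehicle was the other way or within the spread. The 2 DMM groups kept Apoe, Cd9 and Spp1 at the top and Gpnmb and Trem2 at 3.14 and 1.34 FPKM with AP20187, and 1.90 and 1.11 with vehicle.

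**Figure D1:**
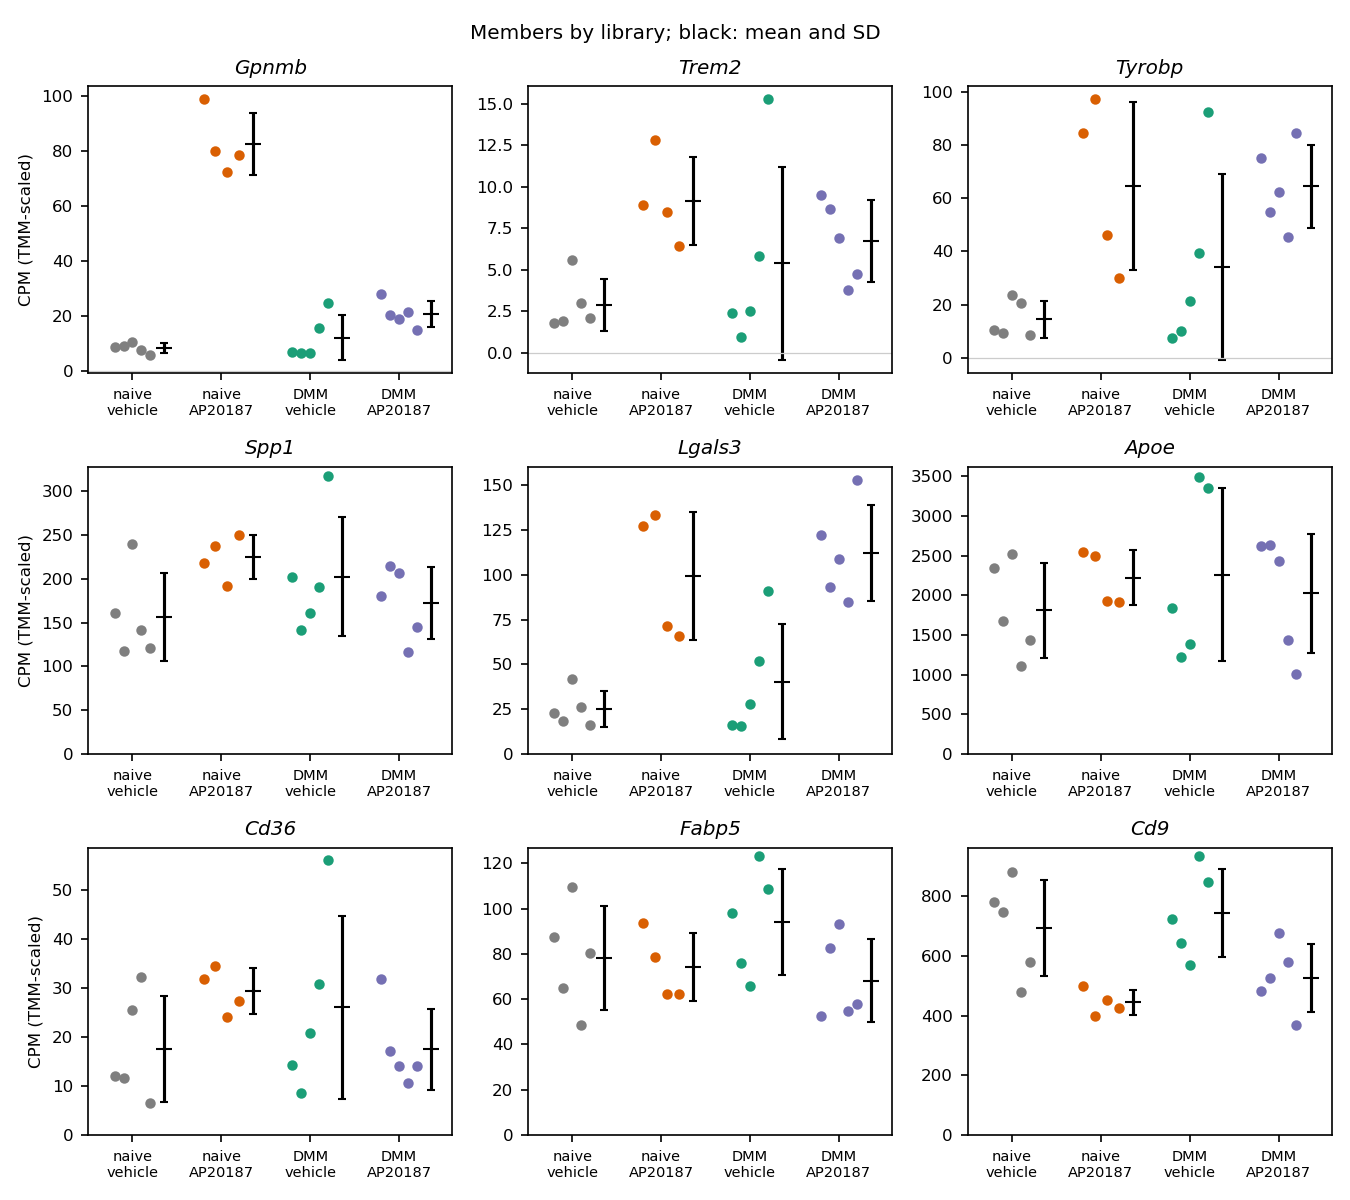
The level of each gene in CPM (y axes, from 0) is plotted for every library of the 4 groups (x axes), with the group mean and SD in black. Gpnmb in the 4 naive libraries with AP20187 lies between 72.7 and 99.0 CPM, above all other libraries, and Trem2 in DMM with vehicle runs from 0.925 to 15.3 CPM, the lowest and the highest of all libraries.

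In naive mice, AP20187 was followed by higher, not lower, levels of 4 genes that myeloid cells express. Gpnmb rose 9.9-fold, Tyrobp 4.46-fold and Lgals3 3.96-fold, while Trem2 was 3.19-fold higher without passing the test (edgeR quasi-likelihood F test, Benjamini-Hochberg adjusted p 0.0675). These 3 of 9 members stand beside 8.61% of all tested genes called higher in that comparison and 11.2% called in either direction. None of the 9 was called lower in the main edgeR fit. Both groups were fully separated for 4 of the 9, with every AP20187 library above every vehicle library, against 9.39% of all genes. The median log2 fold change was 0.74 over the 9 genes and -0.07 over all genes. In DMM mice only Lgals3 passed, 2.78-fold higher with AP20187, beside 11.3% of all genes called higher and 23.8% in either direction, and none of the 9 was fully separated (12.9% of all genes were). The median there was -0.16 over the 9 genes and -0.10 over all genes. In pooled tissue a change in the number of cells of a type and in the RNA per cell cannot be told apart.

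**Figure D2:**
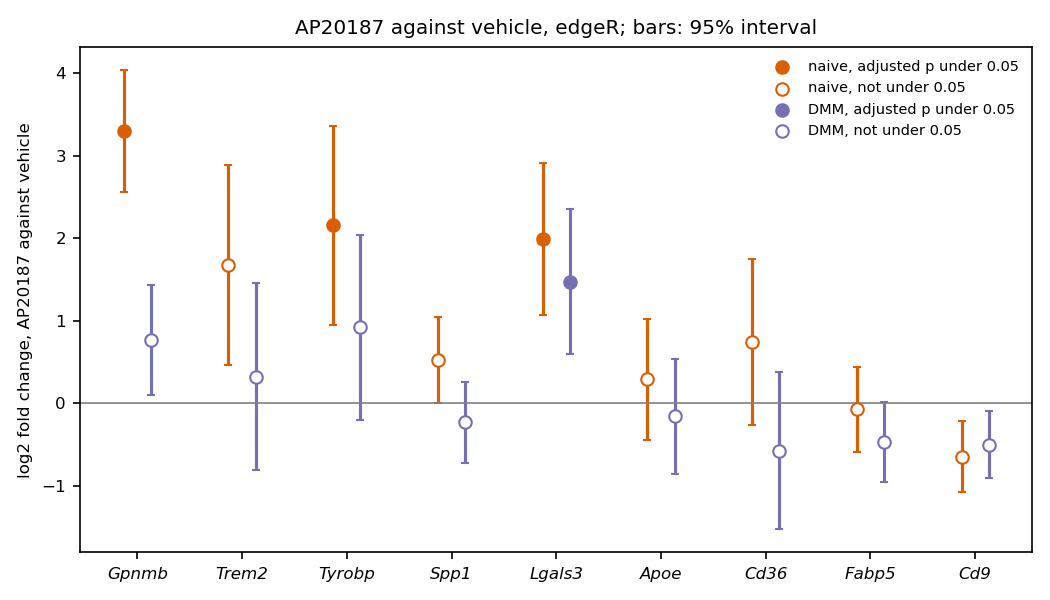
The log2 fold change of AP20187 against vehicle (y axis) is drawn for each gene (x axis) in DMM and in naive mice, with its 95% interval; filled points passed the adjusted p threshold. Gpnmb, Tyrobp and Lgals3 are filled in naive mice and Lgals3 alone in DMM, and for Gpnmb the value is 3.30 in naive against 0.77 in DMM mice.

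Gpnmb encodes a transmembrane glycoprotein of lysosomes and the cell surface that macrophages make under lipid and lysosomal load. Its level in naive mice was 99.0, 80.3, 72.7 and 78.8 CPM with AP20187 (libraries 1, 3, 4 and 5) and 8.78, 9.03, 10.8, 7.57 and 5.81 with vehicle (libraries 1 to 5). The groups did not overlap, and the lowest library with AP20187 lay far above the highest with vehicle. This was a log2 fold change of 3.30 ± 0.35 (SE, 95% interval 2.56 to 4.04, adjusted p 3.39e-05), which ranked 11 of 22778 genes by p. In DMM mice, Gpnmb was 28.1, 20.4, 18.9, 21.5 and 15.1 CPM with AP20187 (libraries 58 to 62) and 7.03, 6.64, 6.70, 15.8 and 25.0 with vehicle (libraries 32, 33, 34, 63 and 64). Libraries 63 and 64 reached the range of the AP20187 group and the other 3 did not. For the whole group the log2 fold change was 0.77 ± 0.32 (interval 0.10 to 1.43, adjusted p 0.0837). Without library 64 it was 1.20 with an adjusted p of 0.00266. Of the 10 fits that each left out 1 library, this was the 1 that passed (adjusted p up to 0.201).

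The effect of AP20187 on Gpnmb differed between DMM and naive mice. The interaction, the log2 effect in DMM minus that in naive, was -2.54 ± 0.46 (interval -3.50 to -1.57, adjusted p 0.0351), and it was the only one of the 9 to pass, beside 0.114% of all genes. Among the mice given AP20187, Gpnmb was lower in DMM, 20.8 ± 4.73 CPM (SD, n = 5), than in naive mice, 82.7 ± 11.4 (n = 4), with no overlap and a log2 difference of -1.99 ± 0.34 (adjusted p 0.00995). That comparison called 0.702% of all genes, and groups did not overlap in 5.9%. With vehicle the means were 12.2 ± 8.13 and 8.39 ± 1.84 CPM (n = 5 each). The interaction passed in 7 of the 19 fits that each left out 1 library (log2 -2.69 to -2.10, adjusted p 0.0148 to 0.0925). Leaving out any of DMM AP20187 59 to 62, DMM vehicle 63, naive AP20187 1, 3 or 4, or naive vehicle 1, 2, 4 or 5 ended the call.

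Skeletal muscle genes were also high in the 4 naive libraries with AP20187. Of 6 muscle genes, 3 were called higher with AP20187 in naive mice, beside 8.61% of all genes, and their list score (mean log2 CPM) was 7.73 to 8.37 in those libraries. DMM vehicle library 32 had a muscle score of 8.11 with a Gpnmb level of 7.03 CPM, as low as in libraries 33 and 34, whose scores were 1.79 and 1.39. The summed general macrophage genes, 503 to 847 CPM in the naive AP20187 group, did not exceed the 271 to 1081 of the DMM AP20187 group, where Gpnmb was 15.1 to 28.1 CPM. Pvalb, a calcium-binding protein of fast muscle and of large sensory neurons, had a pattern of the same kind, at 227 ± 51.1 CPM in naive with AP20187 and 50.3 ± 9.94 in DMM with AP20187 (interaction -2.94, adjusted p 0.0348, kept in 7 of 19 fits without 1 library). Whether the cells behind these markers contribute to Gpnmb was not tested.

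**Figure D3:**
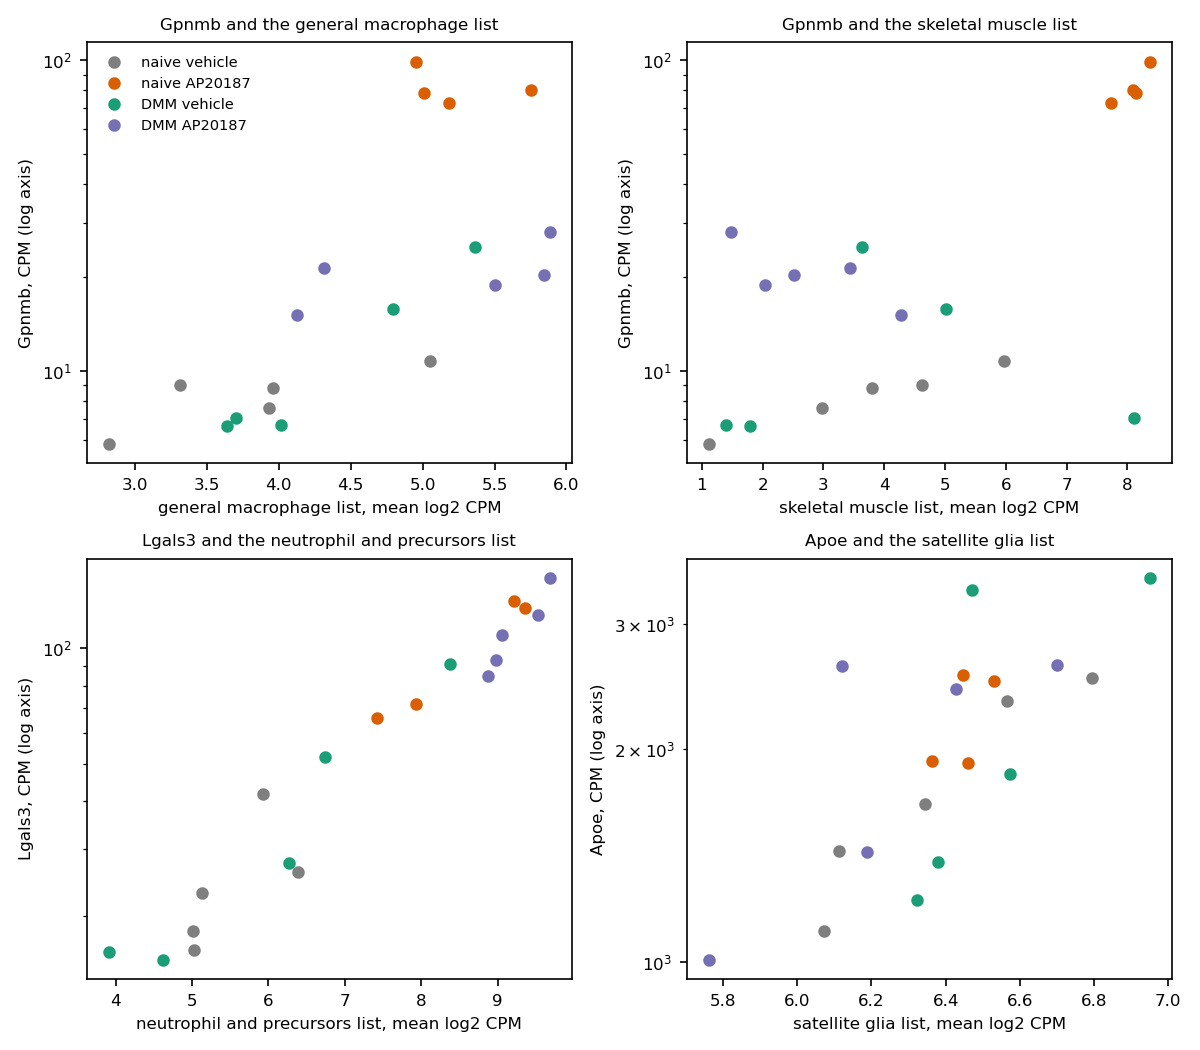
Each panel plots a gene in CPM (y axis, log scale) against the score of a marker list (x axis, mean log2 CPM), 1 point per library coloured by group. Gpnmb is 72.7 to 99.0 CPM in the naive AP20187 libraries at macrophage scores that DMM libraries also have, library 32 of DMM with vehicle combines a muscle score of 8.11 with a low Gpnmb level, and Lgals3 follows the neutrophil score across all groups.

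Trem2, the lipid-sensing receptor, had the lowest level of the set per gene length. In naive mice it was 8.87, 12.8, 8.47 and 6.45 CPM with AP20187 and 1.78, 1.91, 5.56, 3.00 and 2.07 with vehicle, so the groups did not overlap although library 3 of the vehicle group came close. The log2 fold change of 1.67 ± 0.58 (interval 0.46 to 2.88) had an adjusted p of 0.0675. Without naive vehicle library 3 it was 2.06 with an adjusted p of 0.0386, the 1 of 9 fits without 1 library that passed (adjusted p up to 0.193). In DMM mice Trem2 was 9.52, 8.66, 6.93, 3.79 and 4.75 CPM with AP20187 and 2.37, 0.925, 2.48, 5.85 and 15.3 with vehicle. Library 64 was the highest of all 19 and library 33 the lowest, both in the DMM vehicle group, and the log2 fold change was 0.32 ± 0.54 (adjusted p 0.718). Without library 64 it was 1.21 (adjusted p 0.0475), the 1 of 10 fits without 1 library that passed (adjusted p up to 0.960).

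Tyrobp encodes the adaptor (DAP12) that carries the signal of TREM2 and of other myeloid receptors, in neutrophils and natural killer cells too. In naive mice it was 84.7, 97.4, 46.3 and 30.1 CPM with AP20187 and 10.5, 9.34, 23.4, 20.7 and 8.48 with vehicle, without overlap. Tyrobp rose by 2.16 ± 0.57 on the log2 scale (interval 0.95 to 3.36, adjusted p 0.0224). It stayed past the threshold in 4 of 9 fits that left out 1 library (adjusted p 0.0117 to 0.0800), and the call ended without naive AP20187 library 1 or 3 or naive vehicle library 1, 2 or 5. In DMM mice Tyrobp was 75.2, 55.0, 62.4, 45.3 and 84.5 CPM with AP20187 and 7.25, 10.1, 21.3, 39.4 and 92.4 with vehicle. Vehicle library 64 exceeded all 5 AP20187 libraries, and the log2 fold change was 0.92 ± 0.54 (adjusted p 0.226). Without library 64 it was 1.72 (adjusted p 0.0101), the 1 of 10 fits without 1 library that passed (adjusted p up to 0.4075). The 2 naive AP20187 libraries with the highest Tyrobp, 1 and 3, also had the highest neutrophil sums of that group, 23780 and 24390 CPM against 10920 and 6895 in libraries 4 and 5. The sum of 6 monocyte genes was also higher in libraries 1 and 3 of that group, at 4936 and 3779 CPM, than in 4 and 5, at 1792 and 1597, against 214 to 594 with vehicle, and 3 of the 6 were called higher and 1 lower; in DMM it was 3207 to 8733 against 136 to 1389 CPM, with 4 called higher and 1 lower. Most of that sum was Chil3, at 4636 ± 2040 CPM in DMM and 2554 ± 1422 in naive mice with AP20187. The lower gene in both was Ccr2, the chemokine receptor of classical monocytes, at 9.0 ± 4.15 against 54.2 ± 44.1 CPM in DMM and 7.74 ± 3.81 against 32.1 ± 16.9 in naive mice, and Vcan was not called in either. The 5 proliferation genes were all called higher with AP20187 in both settings, at summed levels of 323 to 971 against 72.1 to 302.5 CPM in naive and 766 to 1850 against 41.8 to 430.0 in DMM mice. Platelet genes, 1 of 5 called higher in DMM and none in naive mice, summed to 86.8 to 132 against 20.6 to 72.0 CPM in naive and 92.0 to 298.5 against 12.5 to 178 in DMM mice. Over all genes 8.61% were called higher in naive and 11.3% in DMM mice, and the platelet counts are near those shares. The part of each of these in the Tyrobp values was not tested.

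Lgals3 encodes galectin-3, a carbohydrate-binding protein secreted by macrophages and also made by other myeloid cells and some neurons. It was the only gene of the set called in both DMM and naive mice. In DMM it was 122.2, 93.1, 108.6, 84.7 and 152.9 CPM with AP20187 and 16.2, 15.4, 27.6, 52.2 and 90.8 with vehicle, so that 4 of 5 AP20187 libraries lay above every vehicle library. Lgals3 rose by 1.47 ± 0.42 on the log2 scale (interval 0.60 to 2.35, adjusted p 0.0182). Against vehicle libraries 63 and 64 alone, in a fit that called 4.73% of all genes, it was 0.65 (adjusted p 0.367). Without library 64 it was 2.01. In naive mice Lgals3 was 127.4, 133.1, 71.5 and 65.9 CPM with AP20187 and 23.0, 18.4, 41.7, 26.1 and 16.4 with vehicle, without overlap. The log2 fold change of 1.99 ± 0.44 (interval 1.07 to 2.91, adjusted p 0.00834) did not differ detectably from that in DMM, with an interaction of -0.51 (interval -1.76 to 0.74, adjusted p 0.924). Of the 10 neutrophil genes, 7 were called higher with AP20187 in DMM and 8 in naive mice, beside 11.3% and 8.61% of all genes. S100a8, the neutrophil calgranulin, was 1131 ± 255 and 139 ± 166 CPM in DMM and 1352 ± 881 and 56.7 ± 25.7 in naive mice. The neutrophil genes Ly6g and Retnlg were not called in either setting, and in DMM they were 13.4 ± 2.82 against 15.4 ± 17.1 and 133 ± 35.6 against 146 ± 178 CPM. The monocyte and proliferation sums given with Tyrobp also moved with Lgals3, and the part of none of these was tested.

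Spp1, Apoe and Cd36, whose products are released or bind lipid at the surface, gave no call with AP20187 in edgeR. Spp1 encodes osteopontin, a secreted ligand of integrins and CD44. It was 217.6, 237.9, 192.3 and 249.8 CPM in naive mice with AP20187 and 160.7, 117.9, 239.9, 141.2 and 121.5 with vehicle, where library 3 lay within the AP20187 range (log2 fold change 0.52 ± 0.25, adjusted p 0.171). In DMM it was 180.0, 214.6, 206.4, 116.5 and 145.3 CPM with AP20187 and 201.7, 141.6, 161.2, 190.8 and 317.0 with vehicle (-0.23 ± 0.23, adjusted p 0.519). The groups overlapped in both, and the interaction of -0.75 (unadjusted p 0.0401) had an adjusted p of 0.619.

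Apoe, the lipoprotein ligand that carries cholesterol between cells, had the highest level of the 9. It was 2542, 2497, 1926 and 1912 CPM in naive mice with AP20187 and 2340, 1673, 2517, 1107 and 1435 with vehicle, for a log2 effect of 0.29 (interval -0.44 to 1.02, adjusted p 0.596). In DMM it was 2623, 2628, 2433, 1433 and 1007 CPM with AP20187 and 1842, 1224, 1383, 3493 and 3353 with vehicle, for a log2 effect of -0.16 (interval -0.85 to 0.53, adjusted p 0.778). Values overlapped in both. The score of 6 satellite glia genes, the glia that wrap sensory neurons, was 5.76 to 6.95 over the 19 libraries. The library with the lowest Apoe, DMM AP20187 62, also had the lowest glia score and DMM vehicle 63 the highest of both. With group means removed, Apoe had a Pearson r of 0.785 with the glia score, 0.798 with the general macrophage score and 0.748 with the fibroblast score. The part of each in the Apoe values was not tested.

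Cd36 encodes the scavenger receptor that takes up fatty acids and oxidized lipoprotein, present also on capillary endothelium. It was 31.9, 34.5, 24.1 and 27.3 CPM in naive mice with AP20187 and 12.0, 11.7, 25.6, 32.3 and 6.60 with vehicle, with 2 vehicle libraries inside the AP20187 range (log2 fold change 0.74 ± 0.48, adjusted p 0.310; with limma voom 1.13, adjusted p 0.0410). In DMM it was 31.8, 17.2, 14.1, 10.7 and 14.1 CPM with AP20187 and 14.3, 8.59, 20.9, 30.8 and 56.2 with vehicle (-0.57 ± 0.46, adjusted p 0.392). The estimates had opposite signs, and the interaction of -1.31 (interval -2.70 to 0.07) had an adjusted p of 0.685.

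Fabp5, an intracellular fatty acid binding protein of macrophages, epithelia and glia, gave no call. It was 93.6, 78.6, 62.4 and 62.5 CPM in naive mice with AP20187 and 87.4, 65.0, 109.4, 48.5 and 80.3 with vehicle, for a log2 effect of -0.07 (interval -0.59 to 0.44, adjusted p 0.864). In DMM it was 52.6, 82.7, 93.1, 54.8 and 58.0 CPM with AP20187 and 98.0, 75.8, 65.8, 123 and 108.5 with vehicle, with 3 AP20187 libraries below every vehicle library (-0.47 ± 0.23, adjusted p 0.149).

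Cd9, a tetraspanin of exosomes and of the surface of many cells, had estimates below 0 under AP20187 in both settings. In naive mice it was 500.2, 399.9, 451.9 and 424.6 CPM with AP20187 and 781, 747, 881, 481 and 581 with vehicle, so 3 of 4 AP20187 libraries lay below every vehicle library (log2 fold change -0.64 ± 0.21, interval -1.08 to -0.21, adjusted p 0.0519). In DMM it was 483, 525, 676, 581 and 369 CPM with AP20187 and 725, 643, 571, 933 and 849 with vehicle, again with 3 AP20187 libraries below every vehicle library (-0.50 ± 0.19, interval -0.91 to -0.09, adjusted p 0.0677). Neither passed the threshold in the main edgeR fit, close to it in naive mice. There Cd9 was called lower with DESeq2 (-0.65, adjusted p 0.0109), limma voom (-0.66, 0.0142), library totals only (-0.72, 0.0436) and limma on FPKM (-0.80, 0.0260). It was also called lower in 1 of 9 fits without 1 library, that without naive vehicle library 4 (-0.75, 0.0245). A lower call came in DMM with DESeq2 (-0.47, 0.0400) and in 1 of 10 fits without 1 library, that without DMM AP20187 library 60 (-0.60, 0.0486). The summed level of 5 genes of all neurons was 1526 to 4222 CPM in DMM with AP20187 against 3834 to 7712 with vehicle, with 5 of 5 called lower, beside 12.4% of all genes. In naive mice it was 1598 to 6060 against 4557 to 8641 CPM, overlapping, with none of the 5 called. The sum of 6 Schwann cell genes was 921 to 2903 against 2128 to 3276 CPM in DMM, with 3 called lower, and 1500 to 2529 against 2007 to 3237 in naive mice, with none called. Their part in the Cd9 values was not tested.

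Without AP20187, no difference between DMM and naive mice was detected in these genes. None of the 9 passed in the main edgeR fit, where 0.0% of the 22778 genes did, or in DESeq2. Of the 9, 1 gene, Tyrobp, had an unadjusted p under 0.05 (log2 difference 1.23 ± 0.54, p 0.0342, adjusted p 1.0). All 9 estimates were above 0, from 0.10 for Cd9 to 1.23 for Tyrobp, with a median of 0.54 against 0.03 over all genes. The libraries of the DMM vehicle group fell apart by their numbers. In 8 of the 9 genes both libraries 63 and 64 were above libraries 32, 33 and 34, and Spp1 was the exception. This split was seen in the data, and its parts were not tested against each other. Against naive vehicle, libraries 63 and 64 alone gave log2 differences of 1.31 for Gpnmb, 1.93 for Trem2, 2.24 for Tyrobp and 1.55 for Lgals3, while libraries 32 to 34 alone gave -0.31, -0.57, -0.17 and -0.35; these are descriptions of the split. Library 64 had the highest neutrophil sum of its group, 7182 CPM, and the highest macrophage sum, 674 CPM, and library 63 the second of both, 2454 and 430. Libraries 63 and 64 were also above the other 3 in the sums of erythroid genes (11370 and 26300 against 1564 to 6673 CPM), fibroblast genes (4066 and 6280 against 1053 to 1896) and platelet genes (46.7 and 178 against 12.5 to 26). What the numbers stand for is not given in the labels, and their part in the values was not tested.

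With AP20187, the difference between DMM and naive mice passed for Gpnmb alone of the 9. The other 8 had log2 differences from -0.74 for Cd36 to 0.25 for Cd9, with adjusted p of 0.441 or more, and for Tyrobp the estimate was near 0 (interval -1.18 to 1.18). The median was -0.13 over the 9 genes and -0.01 over all genes.

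Set against the mean log2 CPM of the 12 general macrophage genes in the same library, the members parted into groups. In naive mice Gpnmb rose above that mean, its group mean difference being 1.91 log2 units higher with AP20187 than with vehicle, against 0.13 in DMM. Tyrobp was 0.73 and 0.65 units higher relative to the macrophage genes in naive and DMM mice, Lgals3 0.58 and 0.95, and Trem2 0.35 and 0.04. The remaining 5 were lower relative to them in both: Spp1 by -0.84 and -1.04, Apoe by -1.07 and -0.95, Cd36 by -0.45 and -1.22, Fabp5 by -1.45 and -1.30 and Cd9 by -2.03 and -1.34. These are descriptions with no test.

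Other genes of the lipid-associated macrophage program were described from a list of 20. With AP20187 in naive mice 7 of 20 rose and none fell, beside 8.61% of all genes called higher, with a median log2 fold change of 0.92. Mmp12, the macrophage elastase, rose from at most 0.68 to 6.05 to 11.9 CPM (log2 4.57, adjusted p 0.00749), and Cst7, a cysteine protease inhibitor of the same program, from at most 1.32 to 3.70 to 22.8 CPM (3.91, adjusted p 0.00273). Hvcn1, a proton channel, rose by 2.03 (adjusted p 0.0491) in a call kept in 4 of 9 fits without 1 library (lost without naive AP20187 1 or 3 or naive vehicle 1, 2 or 5). The chemokine gene Ccl3 rose by 4.19 (adjusted p 0.0248) at 0.706 to 3.84 CPM, kept in 6 of 9 (lost without naive AP20187 5 or naive vehicle 1 or 2). In DMM, where 23.8% of all genes were called, 4 of 20 rose and 2 fell, with a median of 0.20, a share of calls near that of all genes: Cst7 by 3.17 (adjusted p 0.00373), Hvcn1 by 2.16 (0.0200), the lipid droplet coat gene Plin2 by 1.41 (0.00125) and the macrophage growth factor Csf1 by 0.94 (0.00193). The 2 that fell were the lysosomal genes Pld3 (-0.88, adjusted p 0.0146) and Ctsl (-0.82, adjusted p 0.0134). The medians over all genes were -0.07 and -0.10.

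Receptors and enzymes that work with TYROBP rose in both settings, 7 of 10 in naive mice (median log2 fold change 2.18) and 8 of 10 in DMM (1.88), with none lower. Over all genes 8.61% and 11.3% were called higher. Clec5a, a TYROBP-coupled lectin of neutrophils and monocytes, rose by 3.84 in naive (adjusted p 0.000912) and 3.81 in DMM (0.000414), where it went from 3.82 to 38.6 CPM with vehicle to 155 to 287. Trem3 rose by 3.18 and 2.88 (adjusted p 0.00738 and 0.00584), Trem1, the neutrophil and monocyte relative of Trem2, by 2.68 and 2.56 (0.0114 and 0.00678), and the signalling adaptor Vav1 by 2.45 and 2.43 (0.00889 and 0.00446). Trem2 itself, at 1.67 and 0.32, did not pass. The neutrophil sums above moved with these genes, and their part was not tested.

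**Figure D4:**
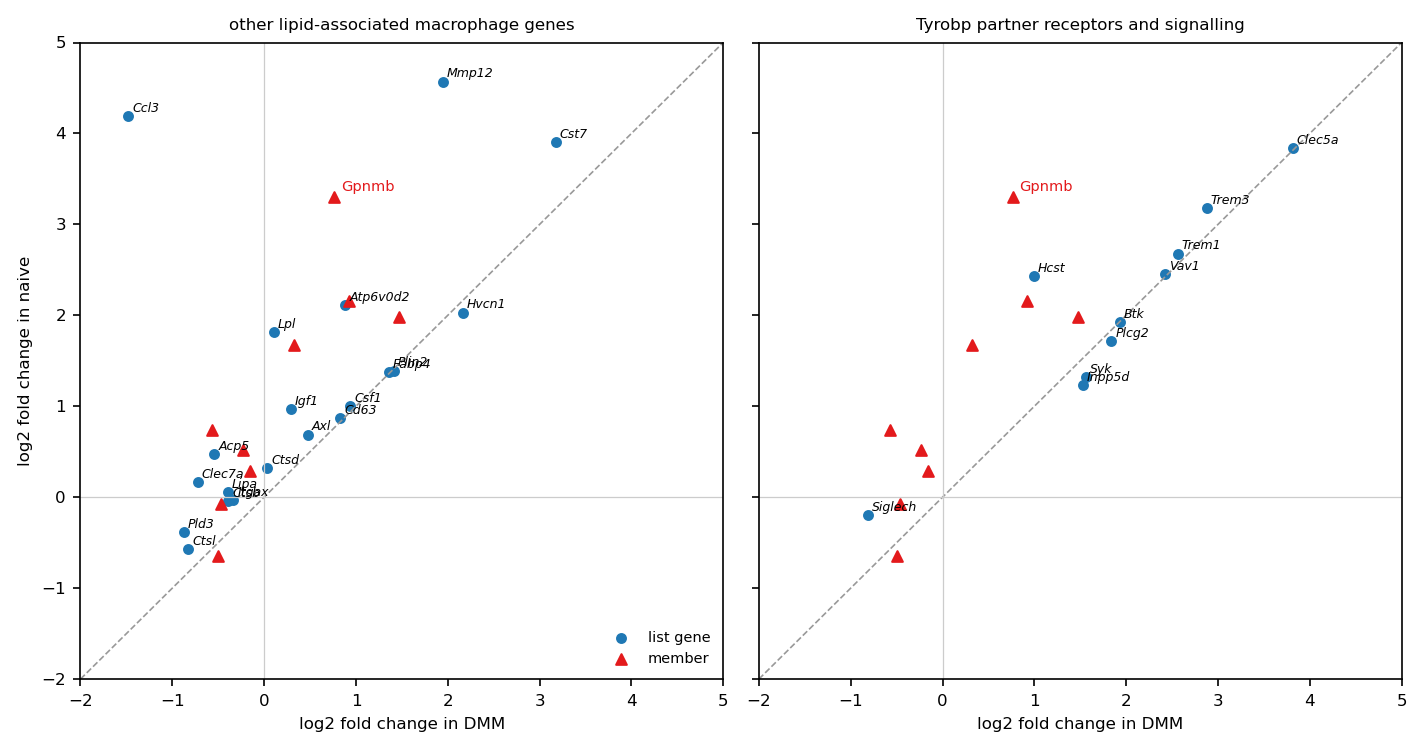
The log2 fold change of AP20187 against vehicle in DMM (x axis) and in naive mice (y axis) is plotted for 20 other lipid-associated macrophage genes (left) and 10 genes that work with Tyrobp (right) as circles, with the 9 members as triangles; the dashed line marks equal change. Gpnmb lies above the line at 0.77 and 3.30, while Clec5a, Trem3, Trem1 and Vav1 lie close to it.

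Of 14 genes of cholesterol and lipoprotein handling, 4 rose in naive mice (median 0.31), beside 8.61% of all genes called higher. In DMM 2 rose and 1 fell (median 0.32), beside 11.3% of all genes called higher and 23.8% in either direction. The share of calls in DMM was near that of all genes. The lipoprotein receptor gene Scarb1 rose by 1.85 in naive (adjusted p 0.000317) and 1.42 in DMM (0.000952), with naive libraries at 41.0 to 51.1 CPM against 9.93 to 16.5. Soat1, which esterifies cholesterol for storage, rose by 0.89 and 1.06 (adjusted p 0.00958 and 0.00134). The scavenger receptor gene Msr1 rose in naive mice by 2.02 (0.0157) and Nr1h3, the sterol-sensing nuclear receptor LXR alpha, by 1.69 (0.0161), both calls ending without naive AP20187 library 3.

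The counts of the short lists that follow stand beside the 11.2% of all genes called in naive mice and the 23.8% in DMM, and in DMM the shares of the fatty acid, osteopontin receptor and galectin and tetraspanin lists were near that of all genes. Of 8 genes of fatty acid binding and uptake none was called in naive mice (median 0.30). In DMM the acyl-CoA synthetase gene Acsl1 rose by 0.68 (adjusted p 0.0228, kept in 6 of 10 fits without 1 library) and Fabp3 fell by 0.66 (0.0320, kept in 5 of 10), with a median of -0.15. Of the 4 MiT/TFE factors, Tfec, a macrophage-lineage member, rose by 3.03 in naive (adjusted p 0.00297) and 2.98 in DMM (0.00145), and Tfe3 by 0.38 in DMM (0.0325, kept in 4 of 10); the medians were 0.56 and 0.44. Of 5 osteopontin receptors, the integrin gene Itgb3 rose in DMM by 1.13 (adjusted p 0.0491, kept in 3 of 10; median 0.04) and none in naive mice (median 0.25). Of 8 galectins and tetraspanins, 3 rose in naive mice (median 0.66) and 2 in DMM (median 0.14). These were the leukocyte tetraspanins Cd53 (2.23 and 1.97, adjusted p 0.0136 and 0.0119) and Cd37 (1.92 and 1.94, adjusted p 0.0369 and 0.0184; in naive mice kept in 4 of 9, lost without the same 5 libraries as Hvcn1), and Lgals9 in naive mice (0.60, adjusted p 0.00529). The calls of Acsl1, Fabp3, Tfe3 and Itgb3 that were lost ended without one of DMM AP20187 58, 59 or 62 or DMM vehicle 32, 33, 34 or 63. No gene of these lists was called between DMM and naive mice or in the interaction. Of the calls in DMM named here, all but those of Clec5a and Scarb1 ended when the vehicle group was limited to libraries 63 and 64. That fit kept 2 vehicle libraries, which were high in most members, and called 4.73% of all genes against 23.8% in the main fit. The losses therefore describe a split seen in the data and are no test of the calls.

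The genes most like each member were taken by Pearson r of log2 CPM over the 19 libraries, among 14649 genes with a mean of at least 1 CPM. These values are descriptions, since libraries share groups and composition. Nearest to Lgals3 were Fcer1g (r 0.989), Evi2a (0.988) and Fcgr3 (0.988), and nearest to Tyrobp were Lyz2 (0.985), Themis2 (0.983) and Selplg (r 0.983 as well). Trem2 was nearest to Foxs1 (0.959), Meox1 (0.952) and Ptx3 (0.949). Gpnmb was nearest to Myh7 (0.921), a myosin heavy chain of slow muscle, Rpl6l (0.917) and Fth1 (0.916). Spp1 was nearest to Casq2 (0.871), Sgce (0.833) and Rarres2 (0.833), and Cd36 to Aldh1a1 (0.898), Scpep1 (0.881) and Zkscan17 (0.875). Apoe was nearest to Cmtm5 (0.953), Rwdd1 (0.935) and Mpv17 (0.928), Fabp5 to Atp5g1 (0.944), Tmem222 (0.924) and Ppp1r11 (0.924), and Cd9 to Calca (0.922), Nmb (0.920) and Stmn3 (0.914). No member was among the 3 nearest of another.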

How the data were processed

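Poly(A) RNA of pooled dorsal root ganglia was sequenced from stranded libraries, per the labels' protocols. The submitters' processing notes name cutadapt, HISAT2, StringTie and build GRCm39; their versions, roles and settings, and the annotation, are not given in the sources used here. The authors deposited 1 table of 36682 genes that gives raw counts and FPKM for each library. A further deposited count table of 56691 entries, of which 6448 had no name, held equal counts for the 9 members. Totals were 60984830 to 74691396 counts per library.

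The main test used edgeR 4.0.16 and R 4.3.3 (quasi-likelihood F test, TMM scaling, filterByExpr with minimum count 10), in 1 model of 4 groups over 19 libraries (15 residual degrees of freedom) with 5 contrasts. Tests were two-sided, with Benjamini-Hochberg adjustment over 22778 genes and a threshold of 0.05. The SE was taken from the F statistic. CPM used the TMM-scaled library size, and list scores are means of log2 CPM with a prior count of 2. On simulated data the model recovered 17.7% to 26.8% of 2-fold changes between groups and 6.25% in the interaction. Of 4-fold changes it recovered 55.7% to 60.6% and 39.4%. A gene that was not called may therefore still differ. FPKM served for levels and for one alternative in limma 3.58.1, on log2(FPKM + 1) with an FPKM of at least 0.1 in 4 libraries. DESeq2 1.42.0 and limma voom were others. The members and lists (17 of cell type markers, 7 of pathways) were chosen with earlier results of these data known. All 9 members were described in every contrast; of each pathway list, up to 4 called genes with the largest change were named per contrast (1 such gene is not reported here), with Csf1r, Adgre1, Cd68 and Fcgr1; Pvalb, S100a8, Ccr2, Chil3 and the other genes given beside a result were named after their values were seen. Of the 17 cell type lists, only some are given, picked after their values were known. Promoter windows were read from a RefSeq table of GRCm38.p6 by symbol, and no coordinates were converted.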

Additional observations from a re-analysis of the deposited data

Results flagged for a closer look

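One result differed between groups by a test of the difference itself. The AP20187 effect on Gpnmb in DMM minus that in naive mice was -2.54 on the log2 scale (edgeR quasi-likelihood F test, adjusted p 0.0351). In 36 sets of libraries (9 genes in 4 groups) no highest or lowest library stood apart by Dixon's criterion.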

How the results depend on the processing

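The count of members called in naive mice was 3 in the main fit, which called 11.2% of all genes. It was 5 with DESeq2 (19.1% of all genes, adding Trem2 and, lower, Cd9) and 6 with limma voom (19.9%, adding Cd36, 1.13, as well). With library totals only (10.8%) and on FPKM (16.7%) it was 4 (adding Cd9, lower). With only the groups compared it was 4 (adding Trem2, 1.71, adjusted p 0.0136), in a fit that called a larger share of all genes than the main fit. Without 1 library it was 2 to 4. In DMM the count was 1 in the main fit, which called 23.8% of all genes. It was 3 with DESeq2 (30.9% of all genes, adding Gpnmb, 0.80, and, lower, Cd9) and 4 with limma voom (46.9%). Against vehicle libraries 32 to 34 it was 4 (36.3%), and against 63 and 64 it was 0 (4.73%). Without 1 library it was 1 to 4, with 2 without DMM AP20187 60 (17.2%, Cd9 lower) and 4 without DMM vehicle 64 (34.0%). Between DMM and naive with vehicle (0) it was 4 with libraries 63 and 64 alone, where 2.21% of all genes were called, a description of a split already seen. Of the list genes named in naive mice, Hvcn1 lost its call with library totals only, with no filter on low counts, on FPKM and with the same 8 libraries unblocked, Ccl3 with the replicate block and with those 8 unblocked, and Cd37 with no filter. Aif1, C1qb and Fcgr1 lost theirs with no filter and with the 8 unblocked, Aif1 and C1qb with library totals only, and Aif1 on FPKM. In DMM, beside the loss against libraries 63 and 64, Fabp3 lost its call with only the groups compared, with limma voom and against libraries 32 to 34, Tfe3 with no filter and on FPKM, Itgb3 with library totals only, no filter and only the groups compared, and Mrc1 on FPKM. The Pvalb interaction was lost with no filter, limma voom and libraries 32 to 34. In the interaction (1) it was 0 with library totals only (Gpnmb -2.49, adjusted p 0.0553), 0 with no filter on low counts (-2.54, 0.0524) and 0 to 1 without 1 library. Equal sample numbers occur in the naive groups only (1, 3, 4 and 5), and libraries of the same number did not all deviate together (r 0.00781, 0.254, -0.0532 and 0.223), so the numbers are not taken as pairs. With a replicate block over the 8 numbered naive libraries 4 members were called, beside 11.5% of all genes. These were Gpnmb 3.38, Trem2 1.68 (adjusted p 0.0168), Tyrobp 2.03 and Lgals3 1.93. The same 8 without the block, an alternative chosen after seeing the data, also gave 4 (Trem2 1.60, adjusted p 0.0399), beside 6.8% of all genes.

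Changes of sign, on the log2 scale, were found in estimates that had not passed the test; the cause was not tested. In DMM these were Trem2 -0.64 and Tyrobp -0.04 against libraries 63 and 64, Spp1 0.04, Apoe 0.45 and Cd36 0.27 against 32 to 34, Spp1 0.13 and Apoe 0.45 with limma voom, and Apoe -0.31 to 0.05 without 1 library. In naive mice Fabp5 was -0.20 to 0.08 without 1 library. Between DMM and naive with vehicle they were Gpnmb -0.31, Trem2 -0.57, Tyrobp -0.17, Lgals3 -0.35, Apoe -0.29, Cd36 -0.27 and Cd9 -0.10 with libraries 32 to 34, Gpnmb -0.10, Apoe -0.23 and Cd9 -0.12 with limma voom, and Cd9 -0.01 to 0.20 without 1 library. With AP20187 they were Tyrobp 0.08 with library totals only, 0.22 with limma voom, 0.28 on FPKM, 0.01 with DESeq2 and -0.26 to 0.26 without 1 library, Lgals3 -0.001 to 0.34, Apoe 0.06 with limma voom and -0.24 to 0.04, and Fabp5 0.14 with limma voom, 0.03 on FPKM and -0.26 to 0.01. In the interaction they were Trem2 0.13, Tyrobp 0.17, Lgals3 0.52 and Apoe 0.16 with libraries 32 to 34, Lgals3 0.20, Apoe 0.29 and Fabp5 0.12 with limma voom, Cd9 -0.11 with 63 and 64, and Lgals3 -0.77 to 0.03 without 1 library. Gpnmb and Lgals3 in naive mice, and Gpnmb between DMM and naive with AP20187, kept their call in every alternative run.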
